A study of Homo sapiens with 24 samples.

Results

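RWPE1 is a line of human prostate epithelial cells that was immortalized and is used as a model of the normal, basal-type epithelium of the gland. The change of these cells between 24 and 48 h in vehicle, without hormone, was examined in 8 of the 24 arrays of the series, which were chosen by their labels and not by any measured value. The 48 h group consisted of 4 cultures kept for 48 h in medium with the ethanol vehicle and given fresh medium at 24 h, and the 24 h group consisted of 4 cultures kept for 24 h in medium with vehicle. All cultures were sub-confluent when the vehicle was added, and they were grown without serum in a keratinocyte medium that contained insulin, epidermal growth factor (EGF) and fibroblast growth factor. Both groups were therefore harvested 24 h after their last change of medium. The 48 h cultures had been in culture for longer, had been re-fed once and had had more time to grow denser, and these effects cannot be told apart. The groups set beside them were vehicle cultures at 6 h and cultures treated with the vitamin D hormone 1,25(OH)2D (100 nM) and harvested at 24 h or at 48 h, those of 48 h again with fresh medium at 24 h, with 4 arrays each. All arrays come from 1 cell line and the labels name them biological replicates. Whether the replicates of a group were plated on separate days is not given in the sources used here, and if they were not, the spread behind the p-values is that between flasks of one plating.

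Epithelial cells in culture change as they spread, meet their neighbours and use up their medium. Cells with room to spread carry actin stress fibres and keep the co-activator YAP in the nucleus, where it binds TEAD transcription factors and switches on matrix and growth genes such as CCN1 and CCN2, whereas crowded cells keep YAP in the cytoplasm. Shortage of amino acids or stress of the endoplasmic reticulum raises the translation of the transcription factor ATF4, which drives amino acid transport and synthesis and the genes DDIT3 and CHAC1. Basal prostate epithelial cells also lay down basement membrane and secrete growth factors and their inhibitors.

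For 2 sets of target genes that the text below describes, promoter elements are shown as sequence. Elements of other lists, such as interferon-stimulated and mitosis genes, were searched too and are not shown. For YAP and TEAD targets the letters searched were CATTCC on either strand, the core of the TEAD element, and for ATF4 targets they were TGATGNAA on either strand, the core of the element bound by ATF4 and C/EBP factors. The stretches below lie in the 250 bases before an annotated start in RefSeq (GRCh38.p14), run 5′ to 3′ on the strand of the gene, and have the matching bases in capitals. The genes were chosen after their values were seen, for a match and for arrays that did not overlap between 48 and 24 h.
CCN2 (chr6:131951432-131951571, minus strand): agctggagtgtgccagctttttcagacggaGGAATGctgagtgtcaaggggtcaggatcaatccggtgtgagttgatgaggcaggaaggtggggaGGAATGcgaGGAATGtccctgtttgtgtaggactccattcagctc
THBS1 (chr15:39581003-39581068, plus strand): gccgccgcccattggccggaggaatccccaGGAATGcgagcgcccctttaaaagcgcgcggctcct
CHAC1 (chr15:40953232-40953299, plus strand): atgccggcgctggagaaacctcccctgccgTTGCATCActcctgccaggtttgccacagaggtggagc
ATF3 (chr1:212565186-212565253, plus strand): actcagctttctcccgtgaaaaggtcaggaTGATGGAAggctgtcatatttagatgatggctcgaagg
CATTCC was found in 14% of all 35116 promoters in the table (300 bases each, 250 before to 50 after the start) and in 8 of the 20 promoters of tested YAP and TEAD targets. TGATGNAA was found in 3.62% of all promoters and in 9 of the 45 promoters of tested ATF4 targets. Several genes have more than 1 promoter in the table, and some members of the lists have no entry. A match describes the letters and does not show that a factor bound there in these cells.

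Each array held 54613 probe sets after the controls were left out, and the values are log2 expression values. The 26036 probe sets that reached 3.2 in at least 3 of the 4 arrays of at least 1 group were tested with limma, which compares the 4 arrays at 48 h with the 4 at 24 h, and a Benjamini-Hochberg adjusted p under 0.05 was the threshold. For each of 12026 genes, the value is that of the tested probe set with the highest mean among those annotated to this gene alone. The spread was larger at 24 h than at 48 h. The mean SD of a probe set was 0.119 at 48 h and 0.253 at 24 h. Replicate 1 at 24 h stood apart from the other 3. In the values minus their group means, 1 component held 71.9% of the variance over all 24 arrays. On it the 48 h arrays lay at -0.032, 0.015, 0.022 and -0.005, and the 24 h arrays at -0.360, 0.182, 0.058 and 0.120. Replicate 1 at 24 h was over 1.5-fold lower than the mean of the other 3 in 2340 genes and over 1.5-fold higher in 1254. The controls that measure RNA integrity did not set it apart. The 3′ minus 5′ difference of the ACTB control was 0.82, 0.63, 0.68 and 0.61 on the 48 h arrays and 0.67, 0.73, 0.65 and 0.71 on the 24 h arrays, and that of the GAPDH control was between -0.06 and 0.00 on all 8. Because this array stands apart, the counts over all genes and in several lists are given below with and without it.

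**Figure D1:**
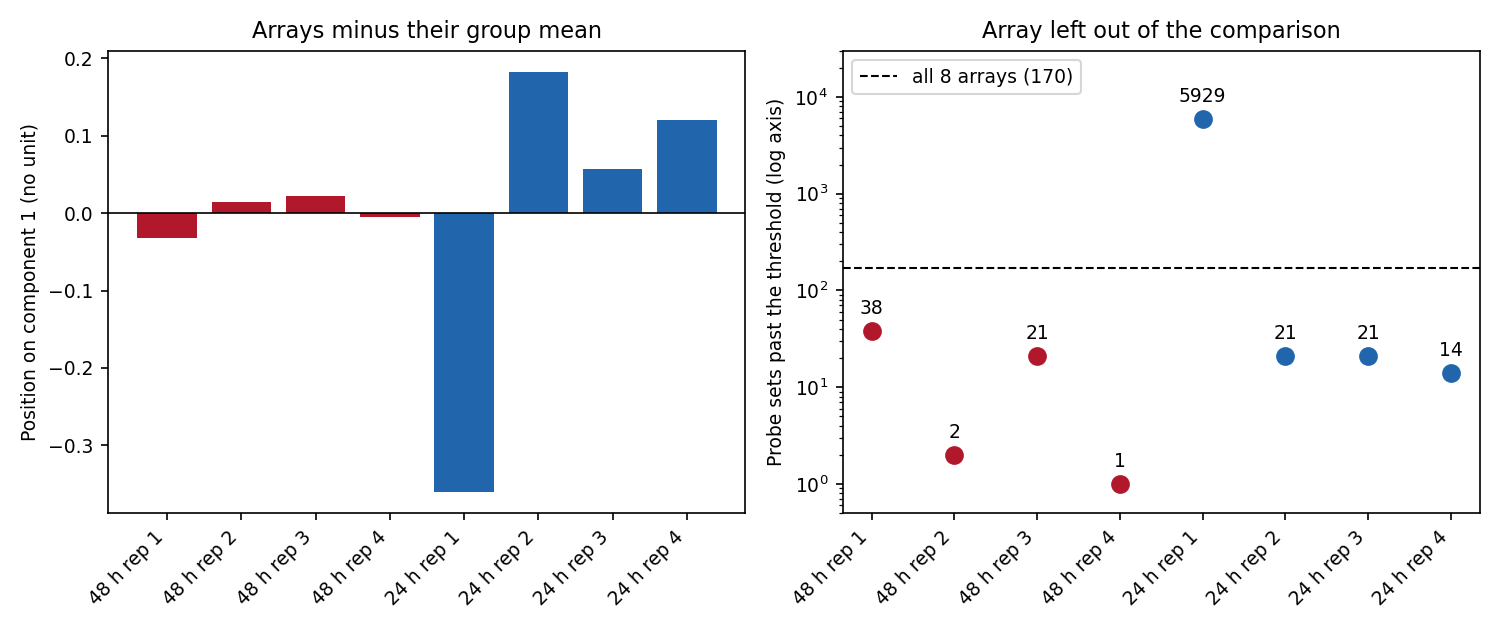
Left, position of each array (replicate 1 to 4, 48 h in red, 24 h in blue) on the first component of values minus group means, where replicate 1 at 24 h lies at -0.360 and the 48 h arrays lie between -0.032 and 0.022. Right, number of probe sets past the threshold when the named array is left out (log axis), between 1 and 5929, with the dashed line at the 170 found with all 8 arrays.

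Markers of basal epithelium were bright at both times. KRT5 and KRT14, the keratins of basal cells, were at 15.36 and 16.13 on average at 48 h, against 15.32 and 16.07 at 24 h, and CDH3 and ITGB4 were at 12.24 and 12.84, against 12.32 and 12.87. None of the 8 tested basal markers passed the threshold in limma or in SAM (significance analysis of microarrays, a permutation-based test run as an alternative), and 1 had an unadjusted p under 0.05. The list holds 11 genes, and TP63, COL17A1 and NGFR were not among those tested. Over all 12026 genes, SAM called 0.133% higher and 0.333% lower at 48 h, and at an unadjusted p under 0.05 6.38% were higher and 9.09% lower, which is the background for every such count below. Of 13 luminal markers 5 were tested, and they differed widely in level. The secreted luminal products KLK3 and KLK4 were at 3.80 and 3.21 at 48 h, against 3.92 and 3.22 at 24 h. These values are close to the median of all probe sets of an array, which was 3.04 to 3.11. The keratins KRT8 and KRT18 of the same list were bright, at 13.03 and 14.50 at 48 h, against 12.93 and 14.33 at 24 h. Only 3 of 12 leukocyte markers, 3 of 9 endothelial and 1 of 9 neuroendocrine markers reached the filter, and of the tested markers of these lists only CLDN5 and KDR had a mean above 4. COL1A1 and THY1, which fibroblasts also express, were at 10.18 and 7.50 at 48 h, against 10.18 and 7.57 at 24 h, whereas the fibroblast and muscle genes LUM and MYH11 stayed at 3.26 and 3.78, against 3.25 and 3.80. CYP24A1, the vitamin D 24-hydroxylase and a sensitive target of the hormone, was at 3.75 ± 0.36 at 48 h and 3.86 ± 0.44 at 24 h in vehicle (SD, n = 4 each), whereas it averaged 9.75 and 9.96 with 1,25(OH)2D. Of the 8 tested genes of vitamin D metabolism and response, VDR and RXRA included, none passed the threshold in vehicle with limma or SAM, nor had an unadjusted p under 0.05.

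Between 24 and 48 h, 170 of 26036 probe sets (0.653%) changed in vehicle, 50 up and 120 down, and 93 of them by over 1.5-fold. At the level of genes, 26 rose (0.216% of 12026) and 68 fell (0.565%). The 4 arrays at 48 h lay on one side of the 4 arrays at 24 h for all 94. Of the 94, 1 (KCNK2) reached the filter on low values only in the group where it was high, and the other 93 reached it at both times. The changes were modest, with a median size of 0.60 on the log2 scale, and 14 of the 94 exceeded 2-fold. The largest rise was 4.94-fold and the largest fall 3.21-fold. Another 68 tested probe sets carry the symbols of 43 of these genes. Of these 59 moved in the same direction and 14 passed the threshold, and none passed it in the opposite direction. In bulk samples fewer cells of a type and less RNA per cell cannot be told apart. The number of calls depended on single arrays. It was 5929 probe sets without replicate 1 at 24 h (2911 up, 3018 down) and 21, 21 and 14 without replicates 2, 3 and 4 at 24 h. It was 38, 2, 21 and 1 without replicates 1 to 4 at 48 h. Of the 94 genes, 10, 9 and 8 stayed past the threshold without replicates 2, 3 and 4 at 24 h. Without replicates 1 to 4 at 48 h, 19, 1, 11 and 1 of them did. Without replicate 1 at 24 h, 1836 genes rose (15.3%) and 1654 fell (13.8%), and all 94 genes above stayed past the threshold, but the change across probe sets then correlated at -0.61 with the loading on the component, against -0.13 with all 8 arrays. The part of that component in the larger counts was not tested. Overlap of the arrays does not depend on the threshold. All 48 h arrays lay above all 24 h arrays for 386 genes (3.21%) and below them for 728 (6.05%), and these shares are the background for the lists below.

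**Figure D2:**
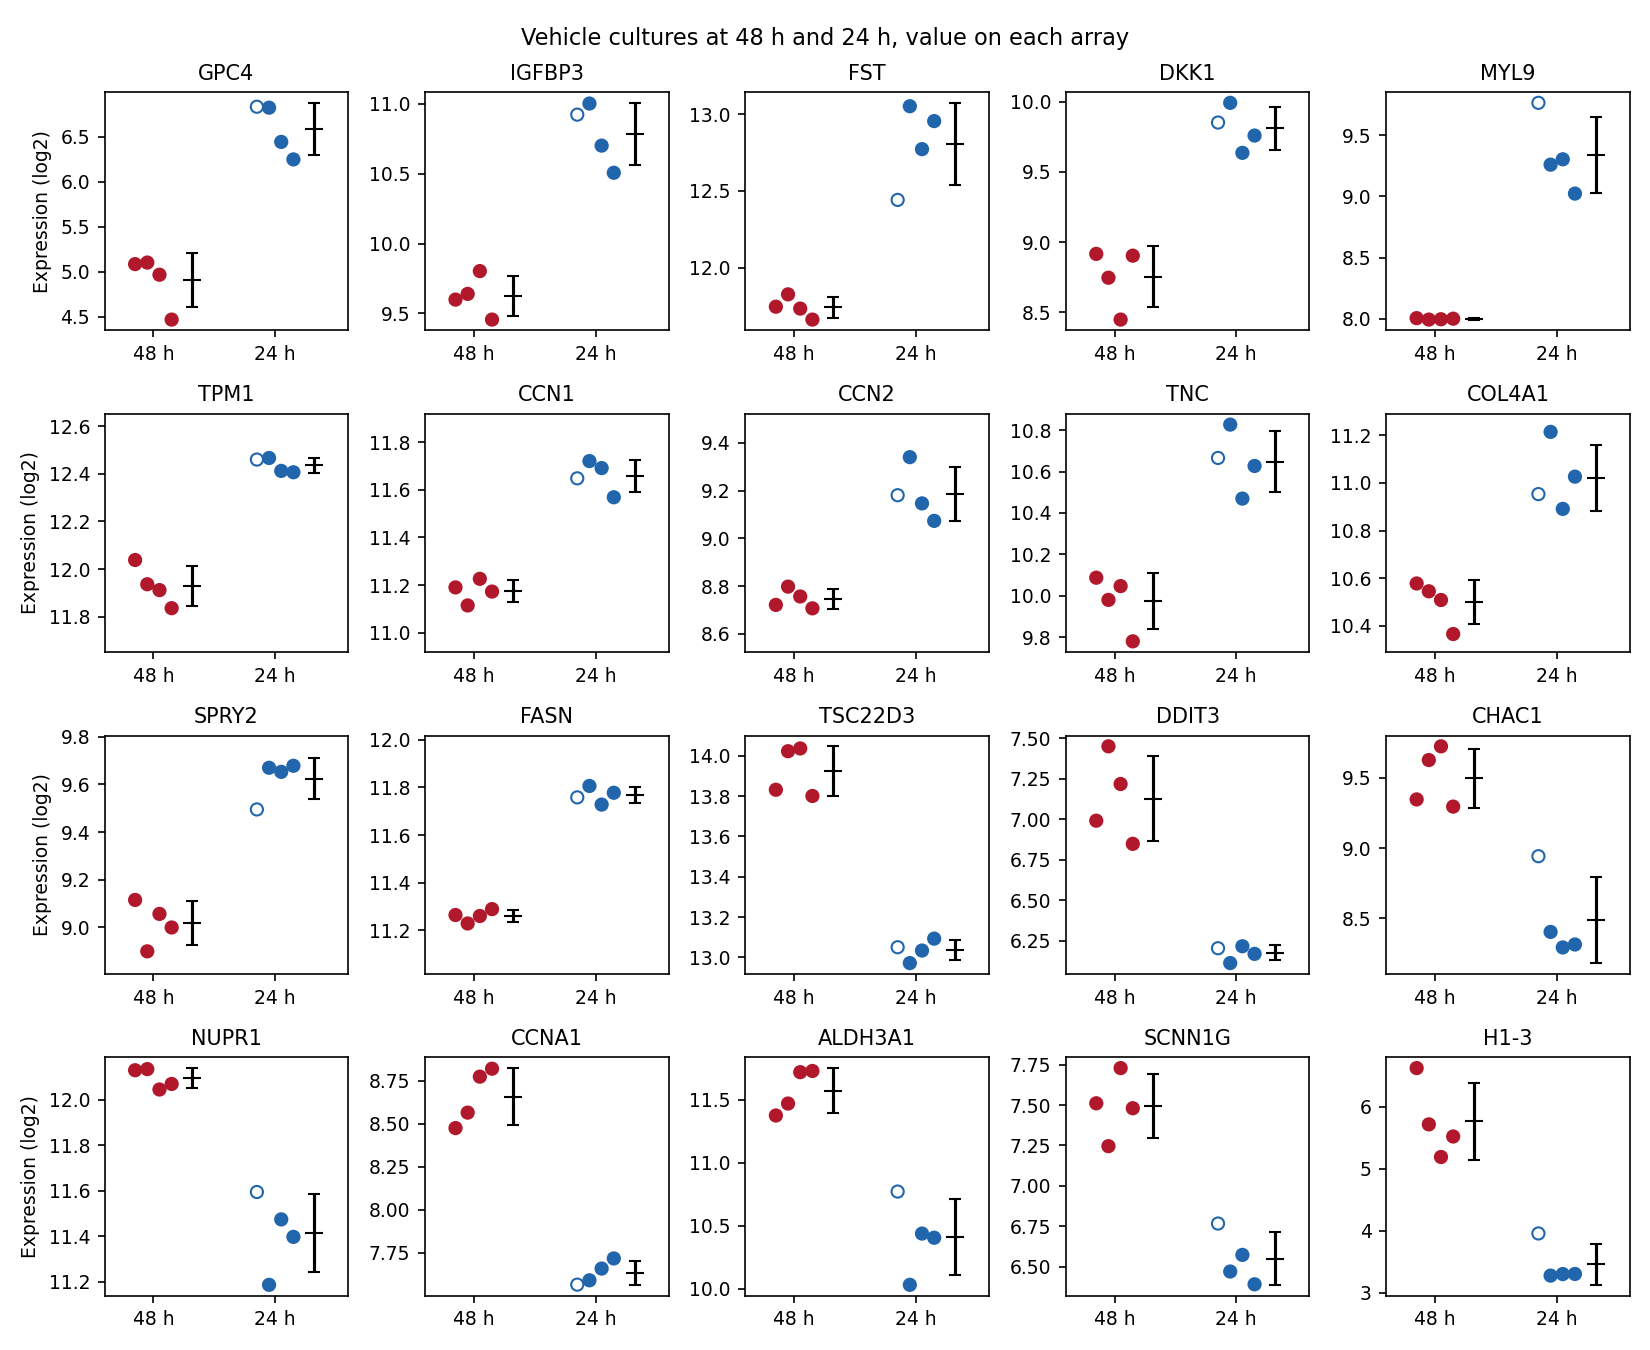
Expression (log2) of 20 genes on each vehicle array, 48 h (red) left of 24 h (blue), with the open circle for replicate 1 at 24 h and the bar for the mean and SD of 4 arrays. The 48 h and 24 h arrays do not overlap in any panel.

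Among genes of the extracellular matrix and its receptors, TNC, COL4A1 and COL16A1 fell at 48 h. They are 3 of 36 tested members of the list, against 0.565% of all genes, and 0 rose. In all 17 of the 36 had all 48 h arrays below all 24 h arrays, against 6.05% of all genes. The median change was -0.31 on the log2 scale, against 0.00 over all genes, and without replicate 1 at 24 h 22 members fell, against 13.8% of all genes, and 0 rose. With any other single array left out, or with SAM, 0 members passed. TNC measured 10.09, 9.98, 10.05 and 9.78 on the 48 h arrays, against 10.67, 10.83, 10.47 and 10.63 on the 24 h arrays. TNC, tenascin C, is a matrix glycoprotein of remodelling tissue, and its 48 h arrays were all lower. It changed by -0.67 ± 0.10 (SE; limma, adjusted p = 0.0385). For COL4A1 the values were 10.58, 10.55, 10.51 and 10.37 at 48 h, against 10.95, 11.21, 10.89 and 11.03 at 24 h. COL4A1, a chain of basement membrane collagen, was 1.44-fold lower at 48 h, a change of -0.52 ± 0.08 (adjusted p = 0.0493), and its second probe set changed by -0.72 and narrowly missed the threshold (adjusted p = 0.0513). COL16A1 was at 9.58, 9.46, 9.38 and 9.39 at 48 h, against 9.93, 9.85, 9.76 and 9.94 at 24 h. This collagen of the matrix around epithelia changed by -0.42 ± 0.07 (adjusted p = 0.0486). Other chains did not pass the test with all 8 arrays, although none of their arrays overlapped. COL12A1 averaged 10.03 at 48 h and 11.02 at 24 h (adjusted p = 0.0811), COL7A1, the anchoring fibril collagen, 8.64 and 9.18 (adjusted p = 0.0874), and FN1, fibronectin, 11.88 and 12.29 (adjusted p = 0.136). Other members had changes near 0. SPARC changed by 0.04 with a 95% interval of -0.16 to 0.25, and LAMB3, a chain of the laminin of hemidesmosomes, by 0.10 with an interval of -0.14 to 0.34.

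GPC4, glypican 4, a heparan sulfate proteoglycan that binds growth factors, fell most of all genes, and it belongs to no list. It was at 5.08, 5.10, 4.97 and 4.47 on the 48 h arrays, against 6.83, 6.82, 6.44 and 6.25 on the 24 h arrays. Its change was -1.68 ± 0.19, or 3.21-fold lower at 48 h (adjusted p = 0.0224). The second GPC4 probe set changed by -1.06 and missed the threshold (adjusted p = 0.0684). SVEP1, a large adhesion protein of the matrix, was lower on every 48 h array. For SVEP1 the values were 7.30, 7.39, 7.61 and 7.19 at 48 h, against 7.97, 8.56, 8.40 and 8.56 at 24 h. The change was -0.999 ± 0.15 (adjusted p = 0.0407), and of its 3 other probe sets, all dim and none past the threshold, 1 changed by -0.61 and 2 by -0.09 and 0.03. AGRN, agrin, another heparan sulfate proteoglycan of basement membranes, was named after its values were seen. It changed by -0.56 ± 0.08 (adjusted p = 0.0394) and by -0.54 in its second probe set, which also passed. PCDH7 was at 7.57, 7.18, 7.06 and 7.17 at 48 h, against 8.02, 8.26, 7.98 and 8.07 at 24 h. PCDH7, a protocadherin of cell contacts, changed by -0.84 ± 0.12 (adjusted p = 0.0371). None of its 3 other probe sets passed, with -0.90 (adjusted p = 0.0598) in one, -0.23 (adjusted p = 0.892) in a brighter one and -0.01 near the floor. PCDH7 was the only cadherin or desmosome gene of 15 tested to pass the threshold.

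MYL9, the regulatory light chain of the myosin of stress fibres and smooth muscle, had nearly the same value on the 4 arrays at 48 h. At 48 h it measured 8.01, 7.99, 7.996 and 8.001, against 9.76, 9.26, 9.30 and 9.02 at 24 h. All 24 h arrays were higher by at least 1 log2 unit, and the change was -1.34 ± 0.14 (adjusted p = 0.0224). TAGLN also binds actin in smooth muscle and spreading cells. It was at 9.24, 9.33, 9.06 and 9.11 on the 48 h arrays, against 10.79, 9.94, 9.997 and 9.96 on the 24 h arrays. It missed the threshold (adjusted p = 0.0781). TAGLN was one of 6 tested fibroblast and smooth muscle markers, of which 0 passed in limma or SAM and 1 was lower at an unadjusted p under 0.05. TPM1, VCL and ACTN4 encode tropomyosin, vinculin and alpha-actinin of stress fibres and adhesions and were named after their values were seen. TPM1 was at 12.04, 11.94, 11.91 and 11.84 at 48 h, against 12.46, 12.47, 12.41 and 12.41 at 24 h. TPM1 changed by -0.51 ± 0.06 (adjusted p = 0.0224), with -0.64 in each of 2 other probe sets that passed the threshold and -0.30 in a dim one. VCL changed by -0.46 ± 0.07 (adjusted p = 0.0394) and ACTN4 by -0.37 ± 0.06 (adjusted p = 0.0498). ACTB, the gene of cytoplasmic actin itself, averaged 15.74 at 48 h and 15.84 at 24 h and did not pass the test (adjusted p = 0.339), although its arrays did not overlap. ACTA2, the actin of smooth muscle, averaged 6.67 at 48 h and 6.79 at 24 h with overlapping arrays (adjusted p = 0.958). TAGLN and ACTA2 belong to that marker list. The other genes of this paragraph come from no list, so their number has no share over all genes to be read against.

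Of 22 tested YAP and TEAD targets 2 fell and 0 rose with all 8 arrays, 8 had non-overlapping arrays in the direction of a fall and 0 in the direction of a rise, and the median change was -0.26. Without replicate 1 at 24 h 12 fell and 1 rose, against 13.8% and 15.3% of all genes, without any other single array 0 fell, and with SAM 1 fell. CCN1 measured 11.19, 11.11, 11.23 and 11.17 on the 48 h arrays, against 11.65, 11.72, 11.69 and 11.57 on the 24 h arrays. CCN1, a secreted matrix-associated protein and a classical YAP target that is also an immediate early gene, changed by -0.48 ± 0.05 (adjusted p = 0.0224). The second CCN1 probe set changed by -0.43 and missed the threshold (adjusted p = 0.0625). For CCN2 the values were 8.72, 8.80, 8.76 and 8.71 at 48 h, against 9.18, 9.34, 9.15 and 9.07 at 24 h. CCN2, its relative whose promoter stretch holds 3 matches to the TEAD core, changed by -0.44 ± 0.07 (adjusted p = 0.0407). THBS1, thrombospondin 1, with 1 match, was lower on all 48 h arrays. It was at 12.22, 12.76, 12.67 and 12.67 on the 48 h arrays, against 13.13, 13.65, 13.27 and 13.31 on the 24 h arrays. It missed the threshold (change -0.76 ± 0.15, adjusted p = 0.0796), as did its 5 other probe sets, which all had negative changes. TGFB2 and F3, the tissue factor, also had non-overlapping arrays with changes of -0.79 and -0.76 and missed it (adjusted p = 0.163 and 0.0783). AXL and AJUBA, which are counted among YAP targets too, changed by 0.04 (95% interval -0.16 to 0.25) and -0.07 (-0.21 to 0.08). THBS1 is also a member of the matrix list.

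**Figure D3:**
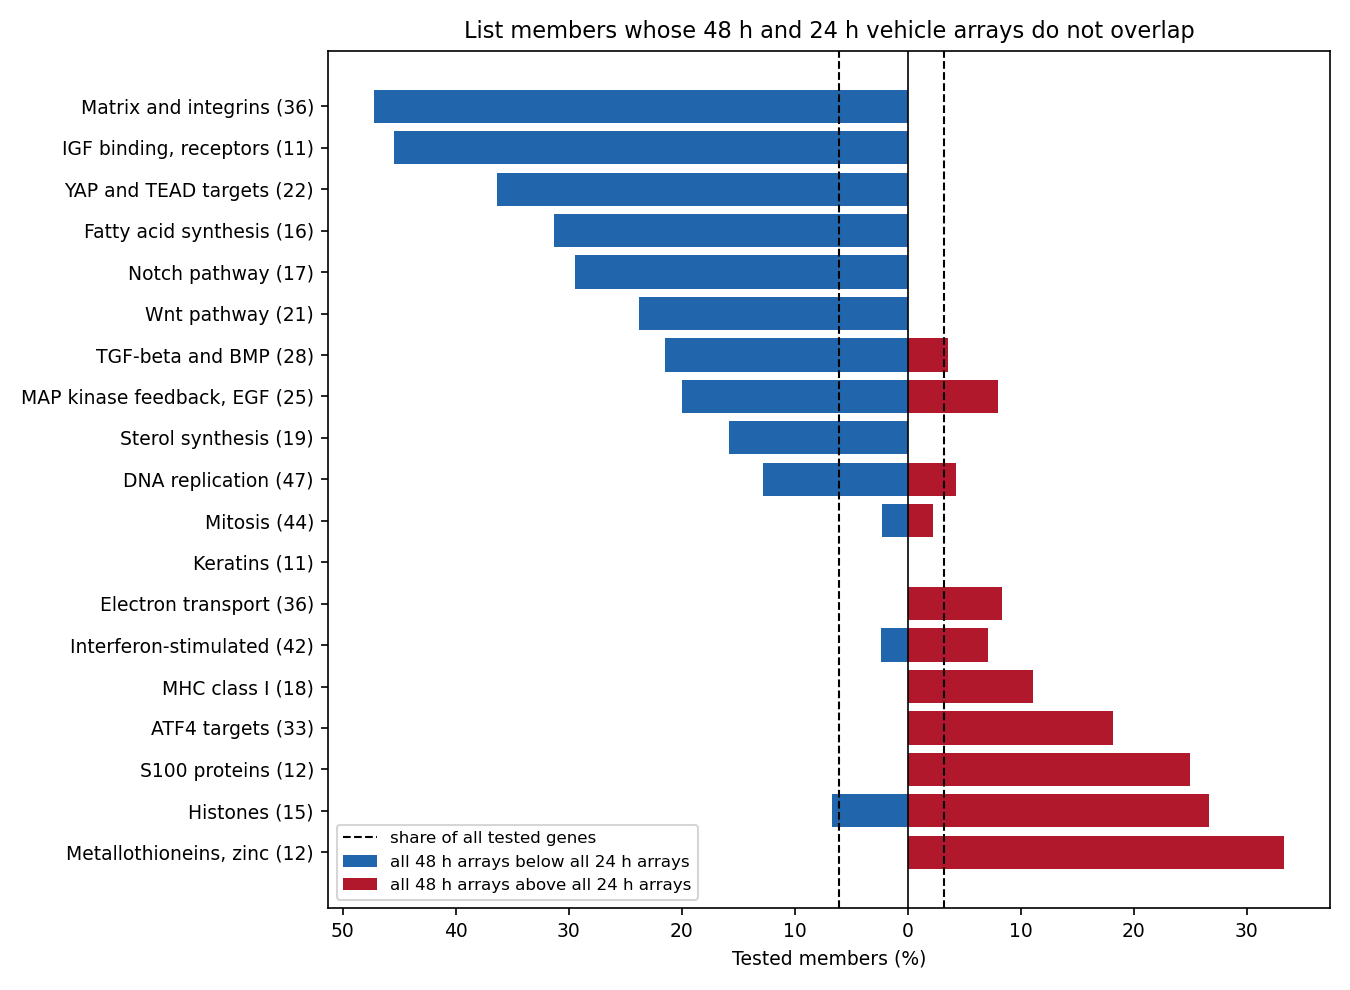
Share of the tested members of each list (number in brackets) whose 48 h vehicle arrays all lie below (blue, to the left) or above (red, to the right) the 24 h arrays, in percent. Dashed lines mark 6.05% and 3.21%, the shares over all 12026 genes, and matrix genes reach 47.2% to the left and, of the 19 lists drawn, metallothioneins and zinc transporters reach 33.3% and histones 26.7% to the right.

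Secreted regulators of growth factor pathways were among the largest falls. IGFBP3, which binds insulin-like growth factors outside the cell, was lower on every 48 h array. It gave 9.60, 9.64, 9.80 and 9.46 at 48 h, against 10.92, 11.003, 10.70 and 10.51 at 24 h. The change was -1.16 ± 0.12 (adjusted p = 0.0224), and its second probe set changed by -1.15 and also passed. IGFBP3 was the only one of 11 tested genes of this family to pass, and 5 of the 11 lay below without overlap. IRS1, the adaptor below the IGF and insulin receptors, averaged 8.52 at 48 h and 9.33 at 24 h without overlap of the arrays (adjusted p = 0.078). FST, follistatin, binds and blocks activins and some bone morphogenetic proteins. For FST the values were 11.75, 11.83, 11.73 and 11.66 at 48 h, against 12.44, 13.05, 12.77 and 12.95 at 24 h. It changed by -1.06 ± 0.13 (adjusted p = 0.0258) and by -1.31 and -0.91 in the other probe sets, both past the threshold. PMEPA1 was at 11.26, 11.32, 11.10 and 11.21 at 48 h, against 11.66, 12.003, 11.83 and 11.90 at 24 h. PMEPA1, which TGF-beta induces and which restrains its signal, changed by -0.63 ± 0.08 (adjusted p = 0.0326), and -0.58 and -0.55 in 2 further probe sets did not pass. These 2 genes were the only ones of 28 in TGF-beta and BMP signalling to pass the threshold, against 0.565% of all genes that fell. Of the 28, 6 lay below without overlap and 1 above, against 6.05% and 3.21% of all genes. Without replicate 1 at 24 h 10 fell and 2 rose, against 13.8% and 15.3%, whereas 0 passed with SAM or without any other single array.

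DKK1, a secreted inhibitor of Wnt signalling, was lower at 48 h. It was at 8.92, 8.75, 8.45 and 8.90 on the 48 h arrays, against 9.85, 9.99, 9.64 and 9.76 on the 24 h arrays. It changed by -1.06 ± 0.12, or 2.08-fold lower (adjusted p = 0.0236). SOX9 is a transcription factor of progenitor cells in several epithelia. For SOX9 the values were 7.90, 7.87, 7.92 and 7.77 at 48 h, against 8.62, 8.97, 8.78 and 8.89 at 24 h. Its 48 h arrays lay close together, and it changed by -0.95 ± 0.08 (adjusted p = 0.011). The second SOX9 probe set changed by -1.04 and missed the threshold (adjusted p = 0.083). DKK1 and SOX9 belong to a list of Wnt genes of which 2 of 21 fell and 0 rose, against 0.565% and 0.216% of all genes. JAG2, a ligand of Notch receptors, changed by -0.38 ± 0.06 (adjusted p = 0.04), the only call among 17 Notch pathway genes. The second JAG2 probe set changed by -0.37 and missed the threshold (adjusted p = 0.0684). SPRY2 and LRIG1 restrain receptor tyrosine kinases and are themselves induced by EGF signalling. SPRY2 was at 9.12, 8.90, 9.06 and 8.9996 at 48 h, against 9.49, 9.67, 9.65 and 9.68 at 24 h. SPRY2 changed by -0.61 ± 0.07 (adjusted p = 0.0231) and LRIG1 by -0.48 ± 0.07 (adjusted p = 0.0407). Of 25 tested genes of MAP kinase feedback and EGF receptor ligands 2 fell and 0 rose, against 0.565% and 0.216% of all genes. With SAM 1 fell. Of the 25, 5 lay below without overlap and 2 above, against 6.05% and 3.21% of all genes. Without replicate 1 at 24 h 9 fell and 2 rose, against 13.8% and 15.3%.

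Few genes of lipid synthesis and the cell cycle passed the threshold. FASN, fatty acid synthase, was lower at 48 h by a small and very even step. At 48 h it measured 11.26, 11.23, 11.26 and 11.29, against 11.76, 11.81, 11.73 and 11.78 at 24 h. The change was -0.51 ± 0.04 (adjusted p = 0.011), and a second probe set near the floor changed by -0.01. SCD, ACLY and ACACA of the same pathway changed by -0.35, -0.32 and -0.30 with non-overlapping arrays and missed the threshold (adjusted p = 0.183, 0.0589 and 0.0684). SREBF1, which encodes the factor that drives the pathway, changed by 0.03 (95% interval -0.15 to 0.20). Of 19 sterol synthesis genes 0 passed in limma or SAM, and 5 were lower and 0 higher at an unadjusted p under 0.05. UHRF1, which reads DNA methylation at replication forks, was the only call among 47 DNA replication genes. For UHRF1 the values were 11.06, 11.004, 11.01 and 10.95 at 48 h, against 11.62, 11.62, 11.42 and 11.58 at 24 h. It changed by -0.55 ± 0.06 (adjusted p = 0.0224). None of 44 mitosis genes and none of 17 G1 cyclins, kinases and inhibitors passed the threshold in limma or SAM. At an unadjusted p under 0.05, 2 mitosis genes were higher and 2 lower, and 1 of the 17 was higher and 3 lower. Without replicate 1 at 24 h, 12 of the 44 mitosis genes fell and 4 rose, against 13.8% and 15.3% of all genes. In that fit 8 of the 19 sterol synthesis genes fell and 2 rose, and 7 of 16 fatty acid synthesis genes fell and 1 rose. Of the 47 DNA replication genes 9 fell and 11 rose in it, and with all 8 arrays 6 lay below without overlap and 2 above. Without any other single array 0 mitosis and 0 sterol synthesis genes passed.

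The other genes among the 12 largest falls have diverse roles. PLAC8 is a small cysteine-rich protein of epithelia and leukocytes. PLAC8 was at 6.44, 6.30, 5.98 and 6.31 at 48 h, against 7.76, 7.65, 7.84 and 7.41 at 24 h. It changed by -1.41 ± 0.13, 2.65-fold lower at 48 h (adjusted p = 0.011). DAPK1, a kinase that responds to calmodulin and can promote cell death, changed by -1.01 ± 0.14 (adjusted p = 0.0363). GPR27, an orphan receptor, changed by -1.19 ± 0.17 (adjusted p = 0.0374), though its second probe set changed by -0.06. ERVMER34-1, an envelope gene of an endogenous retrovirus, changed by -1.12 ± 0.13 (adjusted p = 0.0248). SOBP, which was dim, averaged 3.83 at 48 h and 4.98 at 24 h and changed by -1.15 ± 0.18 (adjusted p = 0.0429). KCNK2, a potassium channel, averaged 2.38 at 48 h and 3.45 at 24 h. It reached the filter of 3.2 in no group but the 24 h vehicle arrays, so that its place among the falls was set by the filter and carries no weight.

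DDIT3 and NUPR1, both of the response to amino acid shortage and stress, rose. Of 33 tested ATF4 targets 2 rose and 0 fell, 6 lay above without overlap, against 3.21% of all genes, and the median change was 0.31. In all, 31 of the 33 had a positive change, against 6208 of 12026 genes. DDIT3, the transcription factor CHOP, which mediates prolonged stress of the endoplasmic reticulum, was the larger of the 2 rises. Its values were 6.99, 7.45, 7.22 and 6.85 at 48 h, against 6.20, 6.11, 6.22 and 6.17 at 24 h. It changed by 0.95 ± 0.13, 1.94-fold (adjusted p = 0.0325). For NUPR1 the values were 12.13, 12.13, 12.05 and 12.07 at 48 h, against 11.59, 11.19, 11.47 and 11.40 at 24 h. NUPR1, a small nuclear stress protein, changed by 0.68 ± 0.09 (adjusted p = 0.0312). CHAC1, which degrades glutathione and whose promoter stretch holds a match to the ATF4 element, was higher on every 48 h array. It was at 9.35, 9.63, 9.72 and 9.29 on the 48 h arrays, against 8.94, 8.40, 8.29 and 8.32 on the 24 h arrays. It changed by 1.01 ± 0.17 and missed the threshold with all 8 arrays (adjusted p = 0.0537), but passed it without replicate 1 at 24 h (adjusted p = 0.00276). ATF3, with another match, changed by 0.46 ± 0.10 (adjusted p = 0.108), and ATF4 itself by 0.25 ± 0.04 (adjusted p = 0.0597). ASNS, asparagine synthetase, averaged 13.22 at 48 h and 12.73 at 24 h with overlapping arrays (adjusted p = 0.185). The transporter SLC7A5 changed by 0.07 (95% interval -0.06 to 0.21), and of 19 genes of the endoplasmic reticulum stress list, which holds the chaperones, 0 passed in limma or SAM, 3 were higher and 4 lower at an unadjusted p under 0.05, and the median was -0.04. Without replicate 1 at 24 h, 13 ATF4 targets rose and 0 fell, against 15.3% and 13.8% of all genes, whereas 0 rose without any other single array and 1 with SAM.

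TSC22D3 (GILZ), a leucine zipper protein that glucocorticoids and FOXO factors induce, was higher at 48 h. It gave 13.83, 14.02, 14.04 and 13.80 at 48 h, against 13.05, 12.97, 13.03 and 13.09 at 24 h. The change was 0.89 ± 0.07, or 1.85-fold (adjusted p = 0.011), and its second probe set changed by 1.12 and also passed. None of the other 12 tested genes that glucocorticoids induce passed the threshold, though 2 had an unadjusted p under 0.05. FKBP5 changed by 0.07 (95% interval -0.16 to 0.29) and SGK1 by -0.02 (-0.20 to 0.16). Of 26 FOXO and quiescence genes 0 passed in limma or SAM, and 5 were higher and 3 lower at an unadjusted p under 0.05. For SCNN1G the values were 7.51, 7.25, 7.73 and 7.48 at 48 h, against 6.77, 6.47, 6.57 and 6.39 at 24 h. SCNN1G, a subunit of the epithelial sodium channel, changed by 0.94 ± 0.12 (adjusted p = 0.031). ALDH3A1 was at 11.38, 11.47, 11.72 and 11.73 at 48 h, against 10.77, 10.03, 10.44 and 10.41 at 24 h. ALDH3A1, an aldehyde dehydrogenase abundant in the cornea, changed by 1.16 ± 0.16, 2.24-fold (adjusted p = 0.034). AKR1C2, a ketosteroid reductase of the antioxidant response, changed by 0.86 ± 0.13 (adjusted p = 0.045), with 0.90 in its second probe set. Near-identical AKR1C genes can share its probes, so the value may belong to the family. It was the only call among 22 NRF2 target genes.

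CCNA1, the cyclin A of germ cells that some epithelial cells also express, was higher on all 48 h arrays. It was at 8.48, 8.56, 8.77 and 8.82 on the 48 h arrays, against 7.57, 7.59, 7.66 and 7.72 on the 24 h arrays. It changed by 1.03 ± 0.09 (adjusted p = 0.011). For HOPX the values were 9.44, 9.41, 9.41 and 9.73 at 48 h, against 8.47, 8.68, 8.81 and 8.73 at 24 h. HOPX, a homeodomain protein of differentiating epithelia, changed by 0.83 ± 0.10 (adjusted p = 0.0258), MAP2K6, a kinase that activates p38, by 0.83 ± 0.12 (adjusted p = 0.0392), and BBS4, a protein of the cilium base, by 0.68 ± 0.09 (adjusted p = 0.034). BNIP3L, a mitophagy receptor and hypoxia target, changed by 0.32 ± 0.05 (adjusted p = 0.0419), the only call among 23 hypoxia targets, and its second probe set by 0.24 (adjusted p = 0.689). LOC101927093 had the smallest adjusted p of the 24 largest changes but was dim. Its values were 4.55, 4.50, 4.45 and 4.58 at 48 h, against 3.52, 3.49, 3.49 and 3.58 at 24 h. It is an uncharacterized locus (change 0.997 ± 0.05, adjusted p = 0.00168).

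H1-3, a linker histone gene, had the largest rise of all. At 48 h it measured 6.62, 5.71, 5.19 and 5.52, against 3.95, 3.27, 3.30 and 3.30 at 24 h. The change was 2.30 ± 0.31, or 4.94-fold (adjusted p = 0.0326). Of 15 other tested histone genes 0 passed with all 8 arrays in limma or SAM, and 7 were higher and 0 lower at an unadjusted p under 0.05. H1-4 averaged 6.48 at 48 h and 5.31 at 24 h (adjusted p = 0.0684) and H2BC21 8.57 and 7.61 (adjusted p = 0.0531), both without overlap of the arrays. In all 4 of the 15 lay above and 1 below, and 8 rose without replicate 1 at 24 h, against 15.3% of all genes. Metallothioneins and zinc transporters also had 4 members above without overlap, of 12 tested, all by small steps. MT1E, MT1F, MT1H and MT1X changed by 0.11, 0.18, 0.08 and 0.13, and none passed the threshold (adjusted p between 0.235 and 0.560). The mRNA of most histone genes ends in a stem-loop and carries a poly(A) tail in only a small part of its copies. Near-identical histone copies can share probes, so the histone values describe the family more than single genes.

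Immune genes and keratins did not pass the test with all 8 arrays. Of 42 interferon-stimulated genes 0 passed in either direction in limma or SAM, 8 were higher and 1 lower at an unadjusted p under 0.05, and 34 had a positive change with a median of 0.17. OAS1 averaged 9.18 at 48 h and 8.37 at 24 h without overlap (adjusted p = 0.0889), and IFI6 10.26 and 9.22 with overlap (adjusted p = 0.192). Without replicate 1 at 24 h 15 rose (35.7%, against 15.3% of all genes) and 0 fell. Of 18 MHC class I genes 0 passed with all arrays in limma or SAM, 5 were higher and 1 lower at an unadjusted p under 0.05, and 8 rose and 2 fell without that array, against 15.3% and 13.8% of all genes. Among 11 keratins none had arrays without overlap, and 2 were higher at an unadjusted p under 0.05. KRT16, a keratin of activated keratinocytes, was at 10.51, 11.12, 10.75 and 10.65 at 48 h, against 10.59, 9.83, 9.86 and 10.06 at 24 h (adjusted p = 0.191). KRT15, a keratin of basal progenitors, was at 12.31, 12.14, 12.63 and 12.60 at 48 h, against 12.35, 11.50, 11.51 and 11.85 at 24 h (adjusted p = 0.248). In both, replicate 1 at 24 h was the array that overlapped.

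The step from 6 to 24 h in vehicle moved more probe sets than the step from 24 to 48 h, 1124 (4.32%), 513 up and 611 down, and at the level of genes 310 rose (2.58%) and 280 fell (2.33%). With the replicate number as a block the count was 4157, whereas the same block took the 170 of the step from 24 to 48 h to 0. In the 6 and 24 h groups every pair of same-numbered arrays deviated together, with correlations of 0.82, 0.42, 0.27 and 0.63. Both of these groups hold an array that stands apart, replicate 1 in each. Of the 68 genes that fell from 24 to 48 h 7 had risen and 8 had fallen from 6 to 24 h, and of the 26 that rose 5 had risen and 1 had fallen. At 48 h 45 of the 68 lay below all 6 h arrays without overlap and 21 of the 26 above them. The genes were chosen on their 48 h values and the share over all genes was not counted, so these numbers have no background. The 24 h arrays enter both steps, so the counts are given as a description.

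**Figure D4:**
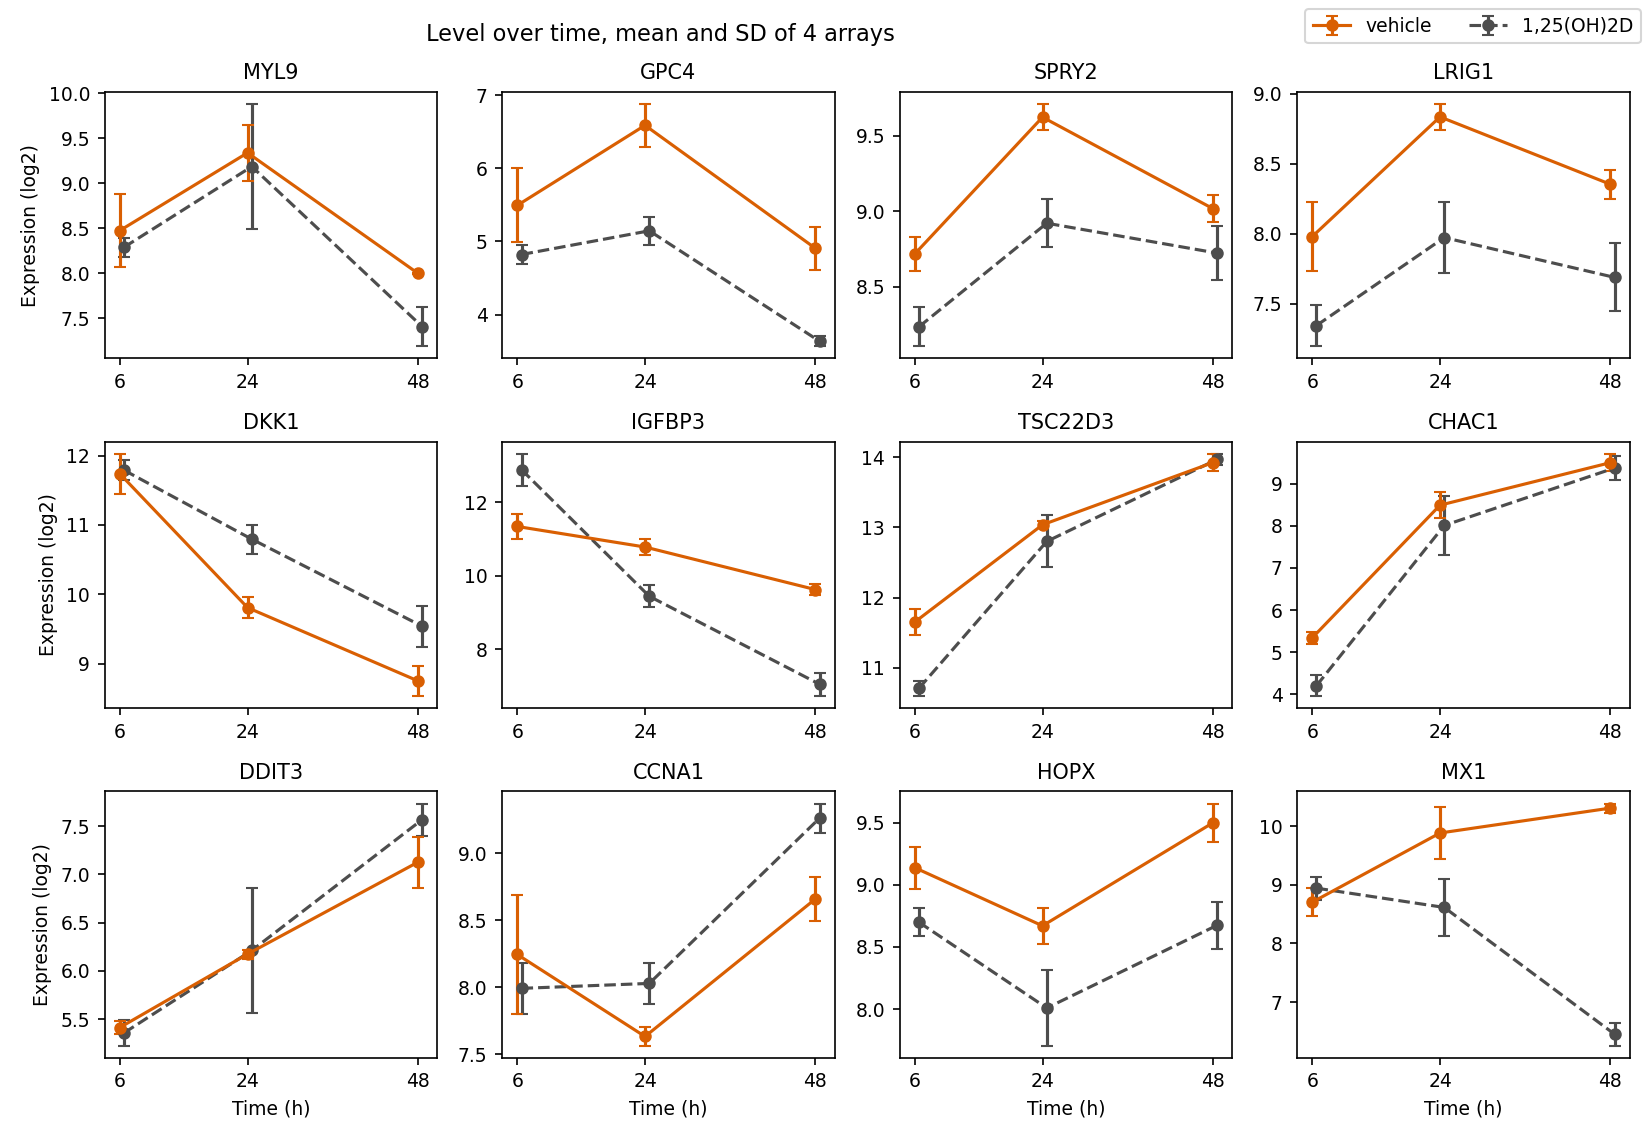
Expression (log2, mean and SD of 4 arrays) of 12 genes at 6, 24 and 48 h in vehicle (orange, solid) and with 100 nM 1,25(OH)2D (grey, dashed). In vehicle, MYL9, GPC4, SPRY2 and LRIG1 peak at 24 h, DKK1 and IGFBP3 decline throughout, TSC22D3, CHAC1 and DDIT3 climb throughout, and CCNA1 and HOPX are lowest at 24 h.

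The difference between the later and the earlier step was tested over the 12 vehicle arrays and passed the threshold for 226 probe sets (0.868%), 89 with the later step higher and 137 with it lower. At the level of genes it passed for 132 of 12026, and 18 of the 94 genes were among them. The 94 were chosen on the later step, which enters this difference, so that count is a description. SPRY2, the feedback inhibitor, had means of 8.72, 9.62 and 9.02 at 6, 24 and 48 h, and the steps differed by -1.51 (adjusted p = 0.00197). LRIG1 went the same way, with 7.98, 8.83 and 8.35 at the 3 times (difference -1.34, adjusted p = 0.018). These genes had their highest mean at 24 h and fell back after it, as did MYL9 (difference -2.20, adjusted p = 0.0183), GPC4 (-2.78, adjusted p = 0.0192), DAPK1 (-2.64, adjusted p = 0.0177) and CCN1 (-0.77, adjusted p = 0.0244). CHAC1 had means of 5.34, 8.49 and 9.50 at 6, 24 and 48 h and gained less in the later step (difference -2.14, adjusted p = 0.00871). DKK1, at 11.74, 9.81 and 8.75, declined over both steps, and the difference of 0.87 did not pass (adjusted p = 0.175, 95% interval 0.30 to 1.45). TSC22D3 climbed over both, at 11.65, 13.04 and 13.92 (difference -0.50, adjusted p = 0.237). CCNA1 and HOPX were lowest at 24 h and rose after it (differences 1.64 and 1.30, adjusted p = 0.0423 and 0.0178).

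The same interval in the presence of 1,25(OH)2D rests on 8 other arrays, which also had their medium replaced at 24 h. Of the 94 genes 92 changed in the same direction there as in vehicle, whereas 58.2% of all 12026 genes did. The hormone arrays at 24 h were the most variable of the series, with a mean SD of 0.398, and 2 of them stood apart on the same component as replicate 1 of the vehicle arrays at 24 h. Leaving these 3 arrays out, 85 of the 94 genes had the same direction, against 44.9% of all genes. With all arrays 13 probe sets (0.0499%) changed from 24 to 48 h with the hormone, 6 up and 7 down, and without the 2 arrays 1202 did (4.62%), 841 up and 361 down. IGFBP3, GPC4, CCNA1 and SCNN1G were among the calls with all arrays. IGFBP3 changed by -1.16 in vehicle and by -2.40 with the hormone (adjusted p = 0.0246), GPC4 by -1.68 and -1.51 (adjusted p = 0.0136), and CCNA1 by 1.03 and 1.23 (adjusted p = 0.0246).

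**Figure D5:**
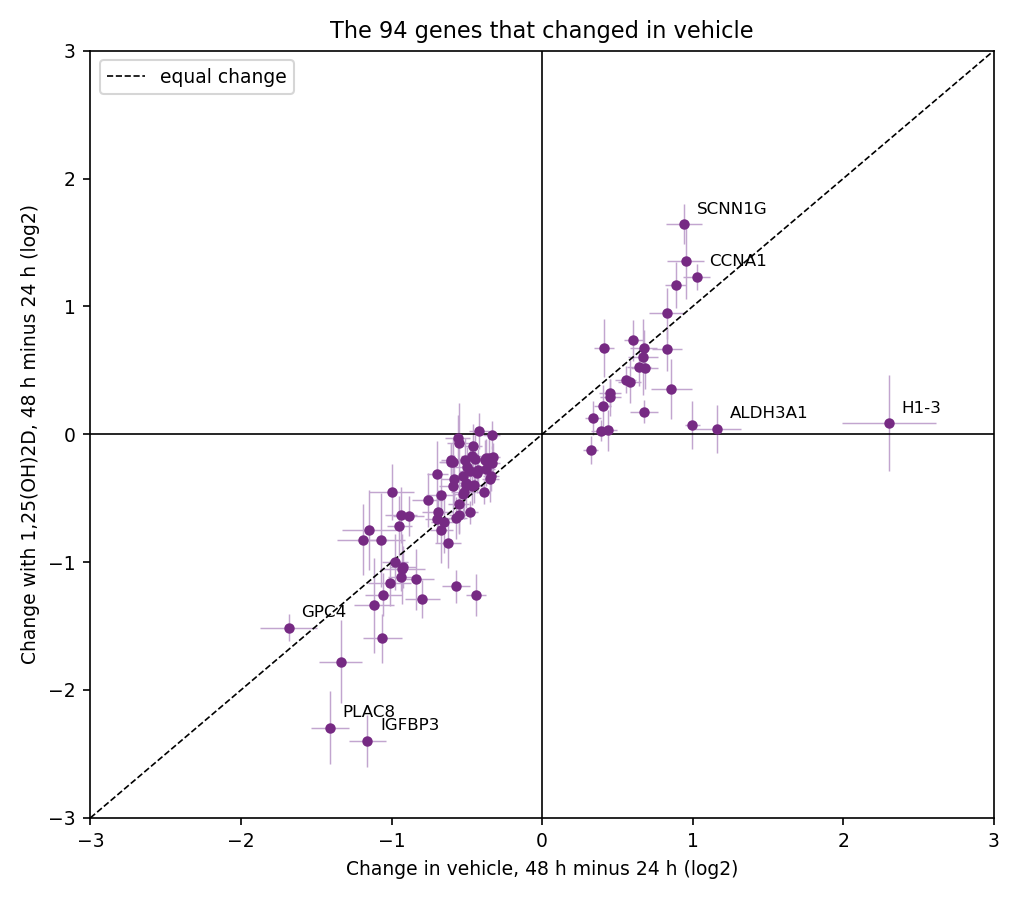
Change from 24 to 48 h (48 h minus 24 h, log2) of the 94 genes that changed in vehicle, in vehicle (x axis) and with 1,25(OH)2D (y axis), with the SE of each as bars and the line of equal change dashed. The points of 92 genes lie in the quadrants of equal direction, and H1-3 and ALDH3A1 lie near 0 on the y axis.

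A direct test of the change in vehicle minus the change with the hormone passed the threshold for 3 probe sets (0.0115%), and for 2872 (11%) when the 3 arrays that stand apart were left out. None of the 94 genes was among the 3, although 19 had an unadjusted p under 0.05, against 4.57% of all genes, and 11 were among the 2872. The 94 were chosen on the vehicle arrays that also enter this difference, so these counts are a description. For 75 of the 94 the 95% interval of the difference held 0. The 5 largest falls in vehicle all missed the threshold, with differences of -0.17 (-0.65 to 0.31) for GPC4, 0.89 (0.19 to 1.59) for PLAC8, 0.44 (-0.36 to 1.24) for MYL9, -0.37 (-1.10 to 0.36) for GPR27 and 1.24 (0.71 to 1.77) for IGFBP3. The intervals of PLAC8 and IGFBP3 did not hold 0, and in both the fall was larger with the hormone. For H1-3 the change was 2.30 in vehicle and 0.09 with the hormone, a difference of 2.21 (1.12 to 3.31, adjusted p = 0.419), and for ALDH3A1 1.16 and 0.04 (adjusted p = 0.419). The 3 probe sets were named after their values were seen. MX1, an antiviral GTPase that interferon induces, was at 10.39, 10.34, 10.29 and 10.21 at 48 h and 10.47, 9.90, 9.43 and 9.73 at 24 h in vehicle, and at 6.70, 6.23, 6.50 and 6.38 at 48 h and 7.94, 8.57, 8.93 and 9.01 at 24 h with the hormone. It was higher at 48 h than at 24 h on average in vehicle and lower in all arrays with the hormone, a difference of 2.59 (adjusted p = 0.0223), and the call held in 5 of 16 fits with 1 array left out. LBH, a transcriptional co-factor of epithelial progenitors, changed by -0.69 in vehicle and 1.04 with the hormone, a difference of -1.72 (adjusted p = 0.00217) that held in all 16 such fits. The last was a dim probe set of RASSF5, with means of 2.64 at both times in vehicle and of 3.71 at 48 h and 2.74 at 24 h with the hormone (adjusted p = 0.0407). It reached the filter only with the hormone, at 6 and 48 h, and both vehicle groups lay below it. Its call held in 5 of 16 fits with 1 array left out, and the brighter RASSF5 probe set had a difference of -0.37 that did not pass (adjusted p = 0.771).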

How the data were processed

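RNA of RWPE1 cells was measured on Affymetrix U133 Plus 2.0 arrays, 4 for each of 6 groups. The deposited log2 values were made by the authors with gcRMA, which subtracts background by probe sequence, applies quantile normalization and summarizes probes per probe set. Quantile normalization gives arrays similar distributions and hides a shift shared by all genes, and values near the floor understate changes. Arrays give no read depth, and their number limits the precision. The methods kept probe sets by MAS5 detection calls and tested with SAM. The calls were not used here, and a filter at 3.2 in at least 3 of 4 arrays of at least 1 group stood in for them. After 62 controls were left out, 26036 of 54613 probe sets were tested, of which 21917 have 1 gene symbol in the platform annotation, 1088 several and 3031 none. Contrasts of the 2 groups compared, or of 4 and 3 groups for the differences between changes, were fitted with limma 3.58.1 in R 4.3.3 (lmFit, eBayes, Benjamini-Hochberg under 0.05, all two-sided). The scripts were tested on simulated data. Alternatives were SAM, other samples in the fit, array weights, scalings, filters, an offset and each array left out.

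Named genes are the 12 largest changes in each direction past the threshold, the largest calls of each list, markers, and genes marked as chosen after their values were seen. Members and lists were chosen with earlier results of these data known. Replicate numbers were taken to pair samples where the deviations of every same-numbered pair correlated over 0.1. This was not so at 48 and 24 h (0.27, 0.13, 0.20 and -0.03) and was so at 24 and 6 h, where 2 of 4 arrays nevertheless correlated best with another number. The labels do not say what the numbers share.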

Additional observations from a re-analysis of the deposited data

Results flagged for a closer look

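In 58 named genes, the 48 h and the 24 h vehicle arrays were checked for an array far from the other 3, by its gap to the nearest array as a share of the range of the group. This found 9 arrays in 116 groups, 4 at 48 h and 5 at 24 h, and chance alone gives about 1 in 20. The 5 at 24 h were all replicate 1, the array that stands apart. The groups share arrays and are not independent, so the count cannot be read against that rate. At 48 h the share was 0.936 for the highest array of GPR27, 0.893 for the highest of HOPX, 0.915 for the lowest of KCNK2 and 0.885 for the lowest of KRT8. At 24 h it was 0.863 for the lowest array of GPR27, 0.861 for the lowest of SPRY2, and 0.961, 0.883 and 0.830 for the highest of H1-3, KRT14 and CHAC1.

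The change from 24 to 48 h differed between vehicle and 1,25(OH)2D by a direct test for MX1 (2.59) and LBH (-1.72). Between the later and the earlier step in vehicle the change differed by a direct test in 12 named genes. The later step was higher by 1.64 for CCNA1 and 1.30 for HOPX. The difference was -2.78 for GPC4, -2.64 for DAPK1, -2.20 for MYL9, -2.14 for CHAC1, -1.83 for KCNK2 (which reached the filter at 24 h only), -1.51 for SPRY2, -1.34 for LRIG1, -1.25 for ATF3, -0.80 for FASN and -0.77 for CCN1.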

How the results depend on the processing

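All of the 94 genes kept their direction under each alternative that measured them, which was 87 under the stricter filter. Their 48 h and 24 h arrays did not overlap, so most alternatives, such as leaving 1 array out, could not turn the direction. The kept direction is therefore no test of these changes. The balance of calls did not keep its direction. Against 50 up and 120 down, it was 11 up and 10 down without replicate 2 at 24 h, 2 up and 0 down without replicate 2 at 48 h and 1 up and 0 down without replicate 4 at 48 h. The count of 170 probe sets was 107 with the 12 vehicle arrays in one fit, 103 with SAM, 82 with all 24 arrays in one fit, 7714 with array weights (whose estimate did not fully converge), 103 without a filter, 111 with a stricter filter, 279 with an offset of 32 on the linear scale, 88 with the trend and robust options, and 1 to 5929 with single arrays left out. Of the 94 genes, 47, 48, 33, 94, 50, 58, 91 and 47 were still past the threshold in these 8 fits in the same order. With the replicate number as a block none of the 170 was called (0 probe sets), and in 3 of 4 replicates an array correlated best with its own number, which is a hint from the data only. The cause of these shifts was not tested.

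The 1124 probe sets of the step between 6 and 24 h became 2421 with 12 arrays, 2034 with 24, 6098 with weights, 680 after centring, 4157 with the replicate block, 4135 without the arrays that stand apart and 264 to 1655 with single arrays left out. The 13 with the hormone became 496 with all 24 arrays, 7711 with weights, 22 after centring, 5 without a filter, 8 with the offset, 0 with the replicate block, 20 with the trend and robust options, 1202 without the arrays that stand apart (841 up and 361 down, against 6 and 7) and 0 to 86 with single arrays left out. The 3 of the difference between vehicle and hormone became 9 with all 24 arrays, 8326 with weights, 0 after centring, 1 each without a filter, with the stricter filter and with the replicate block, 2872 without the arrays that stand apart and 1 to 33 with single arrays left out. The 226 of the difference between steps became 3403 with weights, 128 after centring, 1361 without the arrays that stand apart and 29 to 414 with single arrays left out.

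Leaving out the arrays that stand apart was an alternative added after the data were seen. Array numbers limit these results. With 4 arrays a group and 1 far from the others, a change that missed the threshold is not shown to be absent, and values near the floor bound no fold change.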
